A study of Mus musculus with 6 samples.

Results

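The giant cadherins of the Fat, Dachsous and Celsr families, together with the Fat pathway kinase gene Fjx1, were followed in corneal epithelium with and without Rela. Of the 10 genes named (Fat1, Fat2, Fat3, Fat4, Dchs1, Dchs2, Fjx1, Celsr1, Celsr2 and Celsr3), 9 were found among the 17866 genes of the deposited table, and Dchs2 was not analysed here. In all, 6 of these 9 had enough counts for a test, and Fat3, Dchs1 and Celsr3 did not. Fat4 was chosen by its fall in this same contrast, so its values are given as a description, and the other genes were taken as its family and partners.

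Corneal epithelium was sequenced as bulk RNA in 6 libraries, taken at 6 months of age from C57BL/6 mice. The labels give 3 of them as wild type (WT) and the other 3 as Rela-/- (KO). In the study's methods the KO mice are Krt14-Cre; Rela f/f, so Rela, the gene of the NF-κB subunit p65, is deleted in cells that have expressed keratin 14, and stromal, immune and other cells of the tissue keep it. No other allele or treatment is named for either group. The study's methods call the samples independent and biological, without saying whether each was 1 mouse or a pool, so the p-values below rest on the spread between these samples.

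Fat and Dachsous proteins are very large cell surface cadherins that bind each other across the border between neighbouring cells. Fat4 and Dchs1 form the best known mammalian receptor and ligand pair, Fat1 ties cell contacts to the actin cytoskeleton, and Fjx1 is the vertebrate relative of the fly kinase four-jointed, which tunes this binding by phosphorylating cadherin repeats. Celsr proteins, the relatives of fly Flamingo, are cadherins that pass the membrane several times and belong to the core planar cell polarity system, in which epithelial cells align with their neighbours. Fat signalling is also known as an upstream input of the Hippo pathway, which restrains the growth regulators Yap1 and Taz.

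The libraries were close in depth, with totals between 20158404 and 20880347 counts. Rela itself was counted 1871, 1844 and 1855 times for WT, against 318, 223 and 313 for KO, so 16.5% of its WT level was left. Levels are given as counts, as CPM (counts scaled by TMM to 1000000 a library, for the same gene between libraries) and as TPM (also scaled for gene length and summing to 1000000, for different genes within a library). In CPM, 3 counts, taken as the floor of detection, lay between 0.137 and 0.152, a limit that covers counting error only. Values after ± are SDs over the 3 libraries of a group unless marked as SE. Of 13305 genes tested with edgeR's quasi-likelihood test, 31.8% were called higher and 30.2% lower in KO at an adjusted p of 0.05. At the study's own rule (a fold of at least 2 with an adjusted p up to 0.001) these shares were 11.6% and 8.24%. With a correction for gene length the calls were 2838 higher and 6095 lower in place of 4231 and 4021, and the median log2 difference of all genes moved from 0.0064 to -0.28. The correction was fitted in each library and not re-centred between libraries. This shift of all genes and the length trend are therefore not separated in these calls.

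Of the 5 tested genes other than Fat4, 4 were called: Fat2 and Celsr2 were higher and Fat1 and Fjx1 lower in KO, while Celsr1 did not pass. Fat2, Celsr2 and Fjx1 also met the study's rule. A count of 2 of 5 in each direction stood beside the 31.8% and 30.2% of all genes, and 5 genes are too few to set apart from these shares. Overlap between groups is given below gene by gene, and the share of all genes without overlap was not counted. These 4 calls and their directions held in each of the 15 alternative fits.

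Fat4 (gene 329628, GRCm38 chromosome 3, positions 38874570 to 39011987) encodes the receptor of the Fat4 and Dchs1 pair. In GENCODE M21 its longest coding transcript has 17 exons and 14943 coding bases. It was counted 761, 388 and 839 times in the WT and 11, 14 and 11 times in the KO libraries. All WT libraries lay far above all KO libraries, and WT replicate 2 held the fewest counts of the WT group. The level was 30.9 ± 11.4 CPM (WT) against 0.602 ± 0.0864 CPM (KO) (n = 3 each), so that 1.95% of the WT mean was left, or 51.2-fold less. The log2 difference was -5.67 (SE 0.368). In the order of falls that chose it, which asked for the study's rule, no overlap between groups and a mean of at least 100 counts, Fat4 was the fifth and last gene taken. The next gene inside was Wasf3, with a log2 difference of -5.90, and the first outside was Unc5c, with -5.32. The antisense genes C230034O21Rik and Gm43539 overlap exons of Fat4 over 1209 and 281 bases, and the sources used here do not state whether the counting used strand.

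The reference stretch around the first coding exon of Fat4 is shown with those of Fat1 and Fat2, because these are the Fat genes with measurable levels and they differed in direction. RefSeq windows of 300 bases on GRCm38.p6, from 250 before to 50 after an annotated transcript start, were found for Fat1, Fat2, Fat3, Fat4, Dchs2, Celsr2 and Celsr3. The Fat4 window lies at chr3:38886690-38886989 on the plus strand, the Fat1 window at chr8:44949958-44950257 on the plus strand and the Fat2 window at chr11:55312208-55312507 on the minus strand. Capitals mark the start codon ATG at the right and any match to a motif searched on both strands (the NF-κB consensus, TEAD as GGAATG, AP-1 as TGANTCA and the GC box as GGGCGG).

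Fat4: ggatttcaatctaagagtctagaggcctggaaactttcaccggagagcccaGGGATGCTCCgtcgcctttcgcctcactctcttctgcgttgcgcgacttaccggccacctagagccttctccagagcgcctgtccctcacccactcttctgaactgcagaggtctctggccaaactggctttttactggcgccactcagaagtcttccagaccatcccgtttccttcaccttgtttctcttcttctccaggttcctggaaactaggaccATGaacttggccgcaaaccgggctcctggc

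Fat1: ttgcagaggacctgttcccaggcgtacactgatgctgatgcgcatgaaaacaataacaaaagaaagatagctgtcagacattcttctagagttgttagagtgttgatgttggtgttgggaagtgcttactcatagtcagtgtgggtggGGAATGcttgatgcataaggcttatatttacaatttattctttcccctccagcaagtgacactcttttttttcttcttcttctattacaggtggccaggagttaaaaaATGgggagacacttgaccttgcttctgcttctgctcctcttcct

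Fat2: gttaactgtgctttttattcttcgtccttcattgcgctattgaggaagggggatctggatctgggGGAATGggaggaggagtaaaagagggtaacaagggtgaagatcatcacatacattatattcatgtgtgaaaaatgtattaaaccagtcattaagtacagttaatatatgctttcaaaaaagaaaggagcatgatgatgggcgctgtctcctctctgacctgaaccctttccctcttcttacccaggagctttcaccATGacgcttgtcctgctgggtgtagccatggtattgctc

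In each of the 3 windows the start codon followed the annotated start at a short distance. Its first base was at position 21 in Fat4, 7 in Fat1 and 12 in Fat2, counting the annotated start of the window as position 1. The deposited table places the outer end of each gene farther upstream, at 38874570 for Fat4, 44934712 for Fat1 and 55336613 for Fat2. GENCODE M21 does so too for Fat1 (44935447) and Fat2 (55336564), so their windows lie inside these genes and are not shown to be promoters. For Fat4 it gives 38886940, inside the window, so the 2 sources differ there and the window is not the only candidate promoter. The Fat4 window held 1 match to the NF-κB consensus, 199 bases before the annotated start, and such a match occurs in 8.46% of 32851 windows of this kind. The Fat1 and Fat2 windows each held 1 match to the TEAD motif, as 14.7% of all windows do. None of the 3 held the AP-1 motif (7.81% of all windows) or the GC box (35.7%). The windows of Fat1 and Fat2 were poor in CpG, with 2 and 4 CpG pairs, beside 13 in Fat4, 40 in Celsr2 and a median of 7 over all windows. For Fat1 and Fat2 the motif and CpG counts therefore describe stretches inside the genes, and nothing is read from them about promoters. These matches are letters in a reference sequence, and no binding was measured here.

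Fat1 (gene 14107, chromosome 8, positions 44934712 to 45052257, 29 exons and 13935 coding bases) encodes the cadherin that recruits actin regulators to cell contacts. Its counts were 6952, 6307 and 5750 for WT against 3179, 2908 and 3094 for KO. The groups did not overlap, and the KO libraries were closely spaced. The level fell from 294.5 ± 23.1 to 153.6 ± 7.59 CPM (n = 3 each), which left 52.1% of the WT mean. On the log2 scale this was -0.94 ± 0.0975 (SE) with adjusted p = 7.5e-05 in edgeR, short of the fold of 2 that the study's rule asks for. An antisense gene, Gm2366, overlaps 487 exonic bases of Fat1.

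Fat2 (gene 245827, chromosome 11, positions 55250609 to 55336613, 23 exons and 13053 coding bases), a cadherin known from migrating epithelial sheets, went the other way. It stood at 1222, 1434 and 1031 counts (WT) against 4658, 4597 and 3777 (KO). Every KO library held far more counts than any WT library. Its level rose 3.82-fold, from 57.1 ± 8.99 to 218.1 ± 26.1 CPM (n = 3 each), with 1.93 ± 0.141 (SE) on the log2 scale with adjusted p = 1.2e-05 in edgeR. Fat3 (gene 270120), the remaining Fat gene, had at most 3.53 counts, in WT replicate 3, and was otherwise under the floor of 3 counts, too few for the test.

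**Figure D1:**
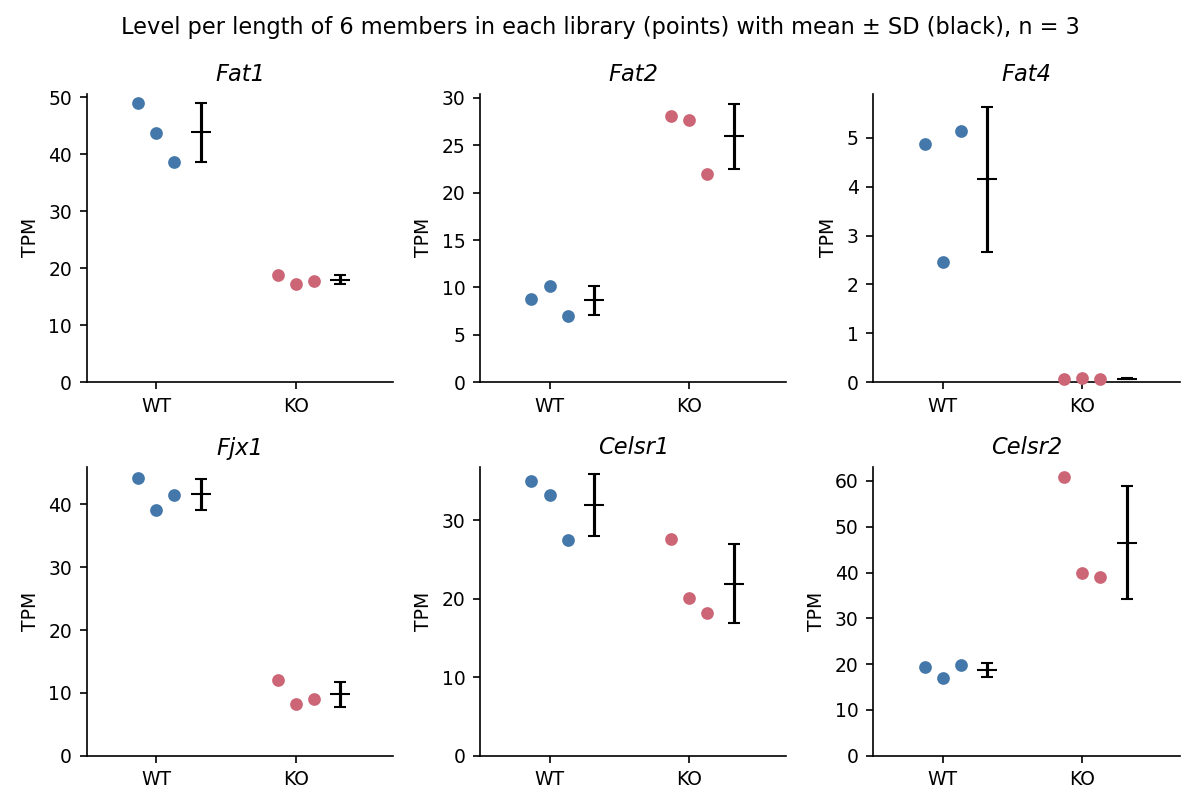
TPM (vertical axes, each from 0) of the 6 measured genes in each of the 6 libraries (points, WT blue, KO red), with the mean ± SD of each group in black. Fat1, Fat4 and Fjx1 were lower and Fat2 and Celsr2 higher in every KO library than in any WT library, while the Celsr1 points of the groups overlapped, and the same held in CPM. For Fat4 the absence of overlap was part of the rule that chose it.

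Among the ligands and the modifier of Fat signalling, Dchs1 (gene 233651, chromosome 7), which encodes the ligand of Fat4, had 0 counts in each WT library and 1 count in each KO library. This is under the floor in both genotypes, so Dchs1 mRNA was not detectable at this depth and no fold is given. Fjx1 (gene 14221, chromosome 2, positions 102449366 to 102451792) is a gene of a single exon with 1350 coding bases, and its counts were 1020, 920 and 1007 for WT against 329, 228 and 256 for KO. The WT libraries were tightly grouped and stood clear of the KO libraries. Its level fell from 45.7 ± 2.58 to 13.6 ± 2.72 CPM (n = 3 each), so 29.8% was left, with -1.75 ± 0.146 (SE) on the log2 scale with adjusted p = 2.5e-05 in edgeR. The receptor gene Fat4 was lower in KO as well, but it was chosen for that, so the shared direction is not a separate result.

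The Celsr genes, members of the core polarity system, differed among themselves. Celsr2 (gene 53883, chromosome 3, positions 108390656 to 108417154, 34 exons and 8757 coding bases) gave 1587, 1364 and 1558 WT counts, compared with 5914, 3904 and 3889 KO counts. The groups were far apart, and KO replicate 1 stood above the other KO libraries. The level rose 3.28-fold, from 69.9 ± 5.67 to 229.6 ± 60.5 CPM (n = 3 each), with 1.71 ± 0.177 (SE) on the log2 scale with adjusted p = 7.3e-05 in edgeR. Without KO replicate 1 the log2 fold change was 1.48.

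Celsr1 (gene 12614, chromosome 15, positions 85898758 to 86034217, 35 exons and 9102 coding bases) was counted 2815, 2674 and 2240 times for WT, against 2788, 1960 and 1918 for KO. In CPM, KO replicate 1 lay above the WT libraries and the other KO libraries below them. The levels were 119.7 ± 12.1 CPM (WT) against 111.6 ± 25.6 CPM (KO) (n = 3 each), and the log2 fold change of -0.10 did not pass (SE 0.159, 95% interval -0.47 to 0.26, adjusted p = 0.603, edgeR). This outcome rested on KO replicate 1, since without it the log2 fold change was -0.30 and passed (adjusted p = 0.0396, edgeR). Celsr3 (gene 107934, chromosome 9) stood at 0, 0 and 4 counts (WT) against 10, 6 and 1 (KO), too few for the test.

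The Celsr1 value also depended on the unit. In TPM its WT libraries stood at 35.02, 33.3 and 27.5 and its KO libraries at 27.6, 20.1 and 18.2, a wider gap than in CPM. Most of this was shared with other genes, since the log2 difference between groups moved by -0.34 from CPM to TPM at the median of 13218 tested genes, by -0.35 for Fat1 and Fat2, by -0.34 for Fjx1, by -0.40 for Celsr2 and by -0.44 for Celsr1. TPM values are therefore used below between genes and within a library. The effective length that RSEM used for a gene follows its estimated mix of transcripts and can be read back from counts and FPKM. For Celsr1 it lay between 8169 and 8459 bases in WT and between 8652 and 9064 bases in KO, with no overlap. The single transcript of Fjx1 gave 2431 to 2432 and 2433 to 2435 bases. Fat1 gave 14900 to 14912 and 14914 to 14933 bases. These 2 genes did not overlap either, but their gaps were far smaller. The table lists 7 transcripts for Celsr1, and their separate levels were not analysed here. For Celsr2 these lengths overlapped, at 7878 to 8596 bases in WT and 8570 to 8682 bases in KO.

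**Figure D2:**
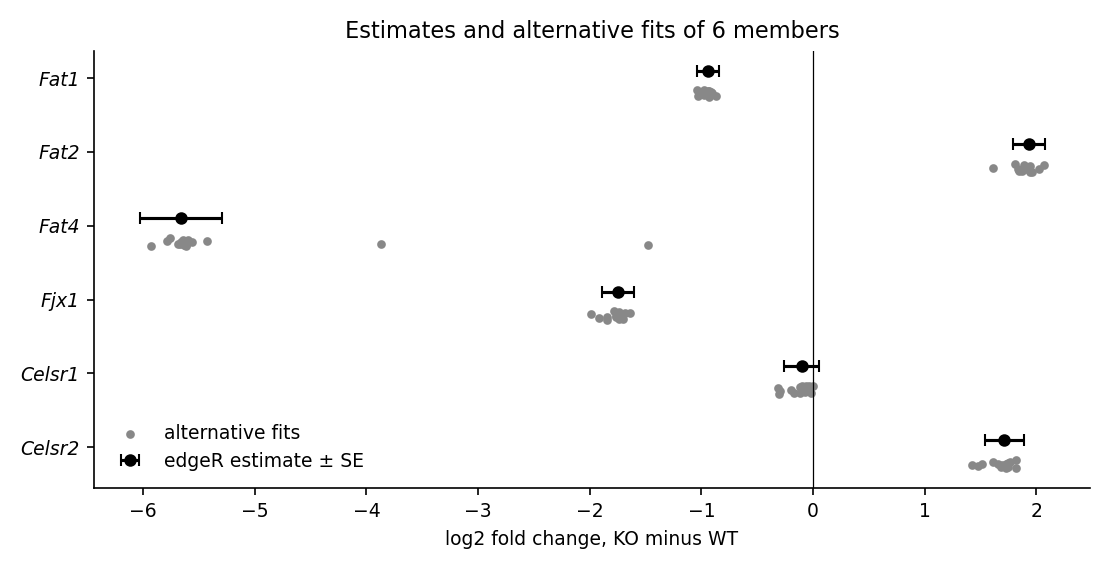
Log2 fold change (KO minus WT, horizontal axis) of the 6 measured genes, with the edgeR estimate ± SE in black and the 15 alternative fits in grey. The estimates of Fat1, Fat2, Fjx1 and Celsr2 stayed on their side of 0, Celsr1 stayed near 0, and the outlying Fat4 points at -3.87 and -1.48 are fits on log2(FPKM + 0.1) and log2(FPKM + 1).

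Ordered by level per length, the WT epithelium held Fat1 (43.9 ± 5.17 TPM) and Fjx1 (41.6 ± 2.49 TPM) at the top, and these neighbours overlapped. They were followed by Celsr1 (31.9 ± 3.93 TPM), Celsr2 (18.8 ± 1.54 TPM), Fat2 (8.63 ± 1.54 TPM) and Fat4 (4.15 ± 1.48 TPM, n = 3 each), and none of these overlapped the next in the order. In KO the order became Celsr2 (46.5 ± 12.4 TPM), Fat2 (25.9 ± 3.42 TPM), Celsr1 (21.9 ± 5.002 TPM), Fat1 (17.98 ± 0.828 TPM), Fjx1 (9.78 ± 1.96 TPM) and Fat4 (0.0667 ± 0.0115 TPM). There, Celsr1 overlapped both of its neighbours, Fat2 and Fat1, while Fat2 stood above Fat1 in every KO library. Fat1 and Fjx1, which shared the top in WT, thus both stood below Celsr2 and Fat2 in KO.

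The make-up of each family was then compared within libraries, where the scaling between libraries cancels out. Fat1 made up 77.3% ± 1.14 of the summed TPM of Fat1 to Fat4 in WT and 41.0% ± 3.23 in KO (n = 3 each). Fat2 made up 15.2% ± 2.34 in WT and 58.8% ± 3.24 in KO. Fat4 held 7.398% ± 2.88 in WT and 0.152% ± 0.0251 in KO. The ratio of Fat2 to Fat1 TPM was 0.178, 0.231 and 0.182 in WT and 1.49, 1.60 and 1.24 in KO, so the more abundant Fat gene was Fat1 in every WT library and Fat2 in every KO library.

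The order within the Celsr family also turned, but unlike Fat1, Celsr1 was not called lower (93.2% of its WT level left, adjusted p = 0.603, edgeR). Its smaller share went with the rise of Celsr2. Celsr1 made up 62.9% ± 4.26 of the summed Celsr TPM in WT and 32.2% ± 1.19 in KO, and Celsr2 made up 37.1% ± 4.22 and 67.8% ± 1.204 (n = 3 each). The ratio of Celsr2 to Celsr1 TPM was 0.555, 0.511 and 0.721 in WT and 2.204, 1.98 and 2.14 in KO. The KO ratios were close together although the Celsr2 level of KO replicate 1 was high, since its Celsr1 level was high as well. With 3 libraries a group, an exact permutation test of such a ratio cannot go below p = 0.1, and these shares are given without a test.

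**Figure D3:**
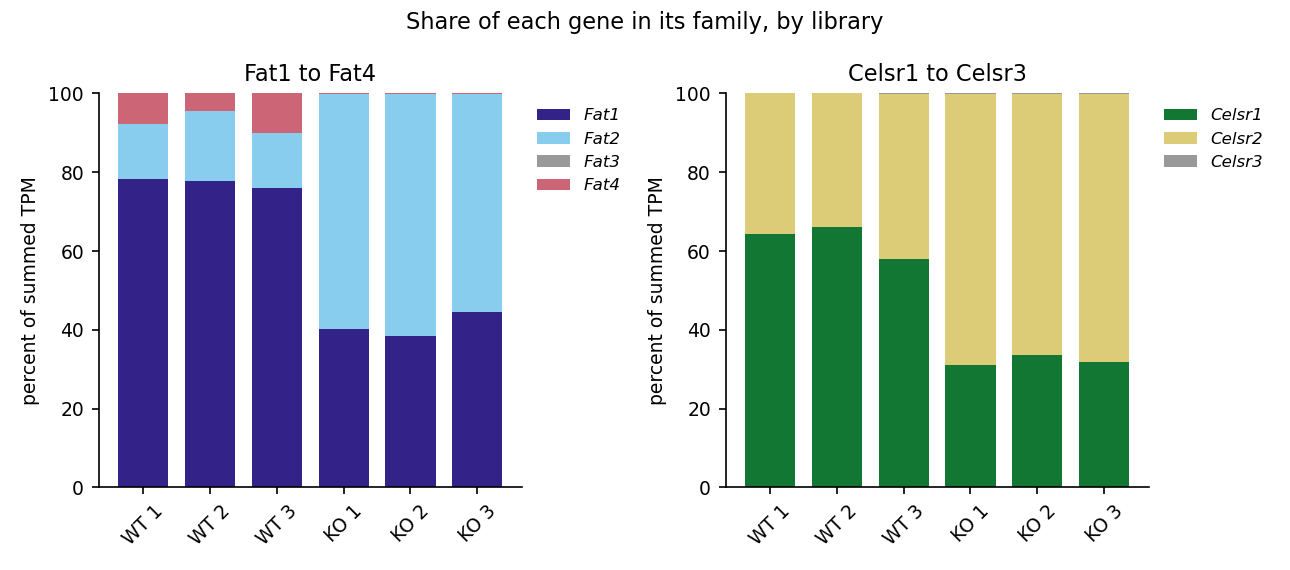
Share of each gene in the summed TPM of its family (vertical axis, percent) in each of the 6 libraries (bars), for the Fat genes on the left and the Celsr genes on the right. Fat1 and Celsr1 took the larger share in every WT library, and Fat2 and Celsr2 in every KO library.

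Gene length was examined because these are among the longest genes expressed. The effective length was 16405 bases for Fat4, 14908 for Fat1 and 14750 for Fat2, beside a median of 2842 bases over tested genes, and they ranked 17, 37 and 39 from the longest of 13305. Of 223 tested genes of at least 10000 bases, 19.7% were called higher and 38.6% lower in KO, and their median log2 difference was -0.14, beside 0.0064 for all genes. Fat4 had the lowest log2 difference of these 223 genes, a place that follows largely from its choice by this fall. Of the same genes, 38 lay below Fat1 and 22 above Fat2. Among these long genes more were called lower than higher, and Fat2 was one of the 44 called higher. After the correction for length the log2 fold changes were -0.93 for Fat1, 1.93 for Fat2, 1.72 for Celsr2 and -1.99 for Fjx1, the short gene among them. When the limit was lowered to 8000 bases, which takes in Celsr1 and Celsr2, the shares were 21.2% higher and 38.8% lower.

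**Figure D4:**
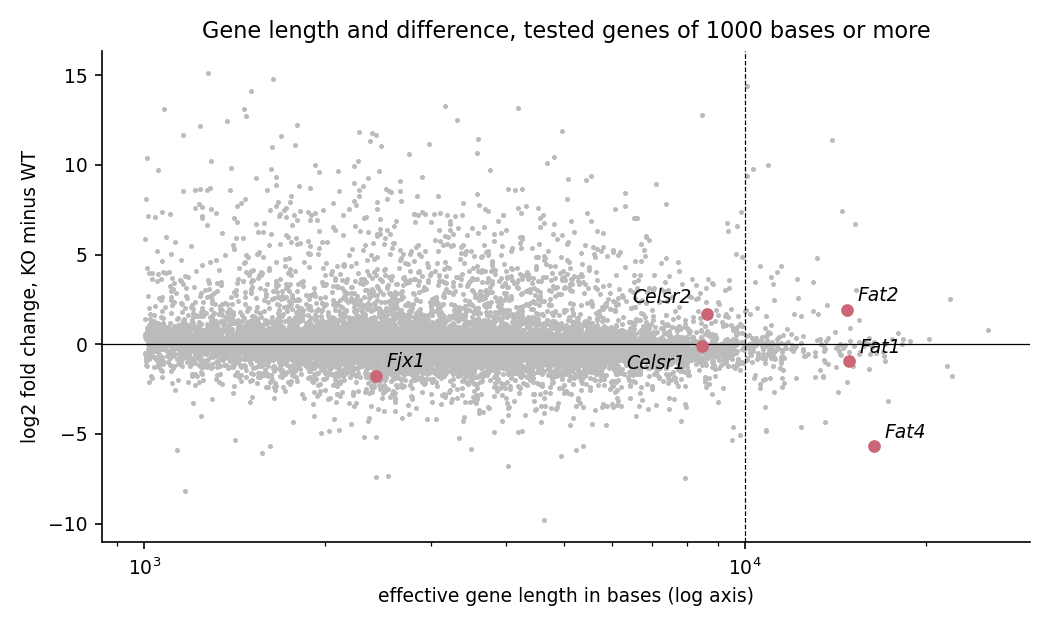
Log2 fold change (KO minus WT, vertical axis) against effective gene length in bases (horizontal log axis) for tested genes of at least 1000 bases (grey), with 6 genes of the Fat and Celsr group in red and a dashed line at 10000 bases. Fat4, which was chosen by its fall, lies below all other genes right of the line. Fat2 lies above 0 and Fat1 below it.

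Partners of these cadherins were taken from 5 lists of pathway and family genes. The list of planar cell polarity genes was broad. Beside core genes it held Wnt5a, Wnt11, Ror1, Ror2 and Ryk, and also Intu, Fuz, Wdpcp and Invs. All 25 were tested, and 8 were higher and 8 lower in KO, or 32% each, close to the 31.8% and 30.2% of all genes. These shares are for the whole list and not for its core genes alone. The median log2 difference of the list was -0.011, with a sign that turned between alternatives. Without WT replicate 1 the lower count was 5, and with a mean count of at least 50 the higher count was 5. The largest changes were rises in receptors and an adaptor of noncanonical Wnt signalling. Ror2 gave 0, 7 and 5 WT counts, compared with 71, 33 and 52 KO counts (3.77 ± 0.635 SE on the log2 scale, adjusted p = 0.0010 by edgeR). Ror1 was counted 7, 9 and 9 times for WT, against 78, 93 and 27 for KO, and Ankrd6, the relative of fly Diego, stood at 44, 54 and 44 counts (WT) against 315, 229 and 222 (KO). All KO libraries lay above all WT libraries for these 3 genes, at low counts for Ror1 and Ror2. Several further genes are named here for their roles, after their values were seen. Vangl2, a core polarity protein of the membrane, was higher (log2 fold change 0.79, adjusted p = 0.0013), as were its relative Vangl1 (0.38, adjusted p = 0.0057) and Wnt5a, a ligand of the Ror receptors (2.44, adjusted p = 6.5e-06). The Frizzled receptors of the list differed in direction, with the abundant Fzd6 lower (-0.41, adjusted p = 0.038) and Fzd3, at far fewer counts, higher (1.83, adjusted p = 4.8e-05). Of the Dishevelled genes, which relay Frizzled signals, Dvl2 was lower (-1.24, adjusted p = 2.4e-04), while Dvl1 (-0.17, adjusted p = 0.23) and Dvl3 (-0.033, adjusted p = 0.84) did not pass. The rest of the genes called lower were Fuz (-1.32), Wdpcp (-1.04), Prickle2 (-1.03), Prickle1 (-0.87), Invs (-0.68) and Intu (-0.62). Daam2 (0.86) was the remaining gene called higher.

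Of 32 Hippo pathway genes, all tested, 5 were higher and 16 lower in KO, beside 31.8% and 30.2% of all genes, with a median log2 difference of -0.32. The lower count lay between 15 and 19 over the alternatives and the higher count between 4 and 7. Amot, a scaffold that holds Yap1 at junctions, gave 2, 0 and 2.14 WT counts, compared with 79, 63.0 and 85.0 KO counts (adjusted p = 2.3e-05, edgeR), too few in WT for a stable fold. Tead4, a DNA-binding partner of Yap1, rose from 0.855 ± 0.421 to 5.06 ± 1.88 CPM (log2 fold change 2.56, SE 0.418), and Ctgf, a Yap1 target, from 0.811 ± 0.445 to 3.93 ± 1.28 CPM (2.27, SE 0.408, n = 3 each). These 3 rises were at low counts, and the other genes called higher, Map4k4 and Mob1b, had smaller log2 fold changes of 0.53 and 0.31. Yap1 was counted 5193, 4949 and 5555 times for WT, against 3030, 2671 and 2701 for KO (-0.79 ± 0.1001 SE on the log2 scale, adjusted p = 2.2e-04 by edgeR). Tead1, the most counted Tead gene of the WT libraries, fell by 1.02 on the log2 scale (adjusted p = 1.0e-04), and the Yap1 target Cyr61 fell by 1.47 (adjusted p = 9.3e-06). The Yap1 targets Ctgf and Cyr61 therefore differed in opposite directions. Another target in the list, Ankrd1, had 0, 15 and 6 WT and 19, 17 and 40 KO counts. It did not pass (log2 fold change 1.94, adjusted p = 0.053, edgeR). Of the kinases, Lats2 fell by 0.72 (adjusted p = 0.0015) and Taok3 by 1.00 (adjusted p = 1.8e-04), whereas Lats1 (log2 fold change 0.19, adjusted p = 0.063), Stk3 (0.066, adjusted p = 0.58), Stk4 (-0.18, adjusted p = 0.13), Taok1 (0.096, adjusted p = 0.35) and Taok2 (-0.0042, adjusted p = 0.97) did not pass. Map4k4, Mob1b, Amotl1, Amotl2, Yap1, Tead1, Cyr61, Ankrd1 and the kinases were named after their values were seen.

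**Figure D5:**
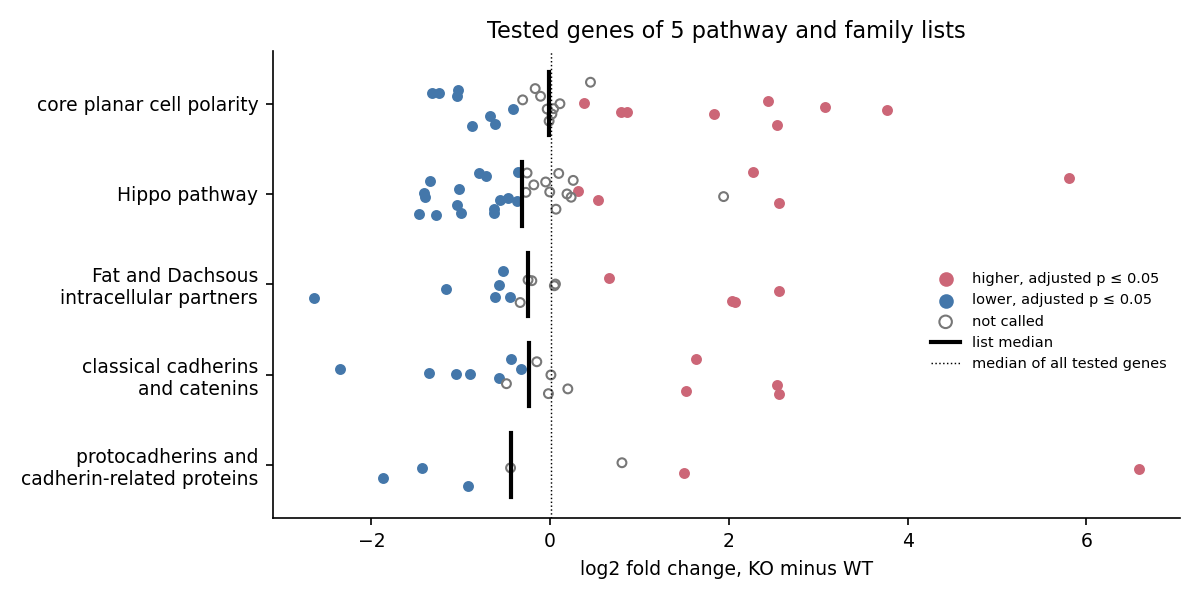
Log2 fold change (KO minus WT, horizontal axis) of each tested gene in the 5 lists (rows), filled red where called higher, filled blue where called lower and open where not called at an adjusted p of 0.05. Black bars are list medians, from -0.44 for protocadherins to -0.011 for polarity genes, and the dotted line is the median of all tested genes, 0.0064.

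Among 15 genes for proteins that bind or act beside the inner tails of Fat and Dachsous, 4 (26.7%) were higher and 6 (40.0%) lower in KO, beside the same 31.8% and 30.2%, with a median log2 difference of -0.25, and 2 were higher with a mean count of at least 50. Homer2, a scaffold protein, stood at 5480, 4890 and 4744 counts (WT) against 671, 886 and 690.5 (KO), -2.64 ± 0.127 (SE) on the log2 scale with adjusted p = 1.7e-06 in edgeR. Enah, one of the Ena and VASP actin regulators, gave 357, 371 and 328 WT counts, compared with 1384, 1450 and 1265 KO counts, with 2.07 ± 0.0991 (SE) on the log2 scale with adjusted p = 1.7e-06 in edgeR. Evl, of the same family, was counted 2, 12 and 4 times for WT, against 39.4, 25.6 and 35.03 for KO. Vasp, the most counted gene of this family in WT, was named after its value was seen and was lower (log2 fold change -0.45, adjusted p = 0.026). The Ena and VASP genes therefore did not move together.

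Of 19 classical cadherin, nectin and catenin genes, 16 were tested, 4 (25%) were higher and 7 (43.8%) lower in KO, against 31.8% and 30.2% over all tested genes, and the median log2 difference was -0.24. Cdh3, the P-cadherin gene, stood at 199, 307 and 275 counts (WT) against 1591, 1150 and 1487 (KO) (2.54 ± 0.191 SE on the log2 scale, adjusted p = 1.4e-05 by edgeR). Cdh4, the R-cadherin gene, gave 211, 209 and 178 WT counts, compared with 28, 52 and 28 KO counts (-2.36 ± 0.253 SE on the log2 scale, adjusted p = 8.9e-05 by edgeR). Nectin3 had at most 6.07 counts in a WT library and between 16.1 and 29.0 in KO. Cdh1, the E-cadherin gene, named after its value was seen, changed less than these (log2 fold change -0.32, adjusted p = 0.040). Of 21 protocadherin and cadherin-related genes, 20 were in the table and 7 were tested, of which 2 (28.6%) were higher and 3 (42.9%) lower, too few to read against the shares of all genes. Their median log2 difference was -0.44 with a sign that turned between alternatives, and without the filter on low counts 4 were higher. Pcdh19 was counted 1, 2 and 0 times for WT, against 80, 133 and 88 for KO. Clstn1, a calsyntenin, fell from 286 ± 10.5 to 78.3 ± 12.03 CPM, and Cdhr1 rose from 13.5 ± 0.782 to 38.1 ± 6.93 CPM (n = 3 each).

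The genes whose pattern over the 6 libraries was most like that of Fat4 were taken by the smallest root mean square difference of centred log2 CPM, among 10119 tested genes with a mean of at least 100 WT counts. They were Cyp4a12a (0.31), Piezo2 (0.37), Wasf3 (0.41), Necab1 (0.41) and Enpep (0.46). Piezo2, which encodes a mechanically gated channel, stood at 3210, 2186 and 3456 counts (WT) against 93, 123 and 85 (KO). In Cyp4a12a the WT counts were 792, 328 and 896, so that, as in Fat4, WT replicate 2 was the lowest of its group. The other 4 also had their lowest WT count in that library, and nothing is read from this likeness beyond the 6 values. The genes were matched on the same contrast that chose Fat4.

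Markers of other cells moved with genotype in the same libraries. The 7 corneal epithelial markers were all lower in KO, their summed level going from between 94503 and 97238 CPM in WT to between 21886 and 24925 CPM in KO. Of 6 epidermal markers 5 were higher, and all 6 summed to between 1213 and 1408 CPM in WT and between 12688 and 25147 CPM in KO. The marker not called was Dsg1a, with 30398, 25650 and 26884 WT and 23685, 22581 and 12822 KO counts. It held most of the WT sum. The other 5 each had at most 226 counts in any WT library and at least 5709 in any KO library. All 7 conjunctival and goblet cell markers were higher, from between 1932 and 2958 to between 52338 and 66966 CPM. The keratin genes Krt13 and Krt4 held most of this sum. The goblet cell genes were at far lower counts, with Muc5ac at 0 in every WT library and at 141, 15 and 214 in KO. Agr2 had 19, 34 and 36 WT and 82, 59 and 172 KO counts. Leukocyte markers, 4 of 4 tested, rose from between 5.11 and 11.8 to between 63.5 and 99.9 CPM. Of 6 tested stromal markers 5 were higher and 1 lower, and the stromal list summed to between 13.4 and 16.9 CPM in WT and between 19.2 and 32.3 CPM in KO. Dcn had 1, 0 and 1 WT and 153, 24 and 93 KO counts, and Thy1 had 2, 5 and 0 against 191, 84 and 159. Vim had 13, 29 and 16.27 WT and 170, 159 and 288 KO counts. The keratocyte gene Lum was at 0 in every WT library and at 2, 4 and 1 counts in KO, around the floor. The stromal gene that fell was Pdgfra, counted 275, 235 and 330 times for WT and 23, 28 and 21 times for KO. Pdgfra held most of the WT sum, so the sums understate the rise of the other stromal genes. Nerve and Schwann cell markers (1 of 3 higher, 2 lower) summed to between 193.2 and 249.3 CPM in WT and between 119.2 and 141.7 CPM in KO, mostly Mbp, while Sox10 was at or under 5 counts throughout. Melanocyte markers (0 higher and 2 lower of 3 tested) summed to between 7.46 and 9.65 CPM in WT and between 5.21 and 5.32 CPM in KO. Of 3 vessel markers in the table, 1 was tested and was higher, and Kdr and Tek were at or under 2 counts in every library. In bulk tissue a lower share of one cell type and less RNA per cell cannot be told apart. The part of these cell types in the Fat, Fjx1 and Celsr values was not tested.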

How the data were processed

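The deposited table gives, for each gene and library, the estimated counts of RSEM, which the authors obtained after filtering reads with SOAPnuke and aligning them with Bowtie2 2.2.5 (RSEM 1.2.12). It also holds the FPKM and TPM values that the authors derived from these estimated counts by effective gene length. The submitters' processing notes name mm9, but gene positions in the table are those of GRCm38, and the strand given there was not used, since it disagrees with GENCODE M21 for Fat2, Celsr1 and Celsr2. The log2 fold changes, p-values and q-values of the authors' own DESeq2 comparison and their group averages were not used.

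Estimated counts, rounded to whole numbers, went into edgeR 4.0.16 under R 4.3.3 (filterByExpr, TMM, quasi-likelihood fit on genotype alone), and p-values were adjusted by Benjamini-Hochberg over all 13305 tested genes. An SE was derived from each gene's log2 fold change and F statistic. TPM gave levels between genes. The members and the gene lists were chosen with earlier results of these data known. From each list, up to 3 called genes with the largest log2 fold change and a mean of at least 10 counts were named, and the text says where others were added. Alternatives were RLE factors, total counts, DESeq2 1.42.0, no filter, a mean count of at least 50, the replicate number as a block, a loess correction for length, limma 3.58.1 on log2(FPKM + 1) and log2(FPKM + 0.1), and leaving out each library. Sequences came from RefSeq (GRCm38.p6). Read-level quality and strand were not analysed here.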

Additional observations from a re-analysis of the deposited data

How the results depend on the processing

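The calls of Fat1, Fat2, Fjx1 and Celsr2 held in all 15 alternative fits, with log2 fold changes from -1.04 to -0.87, 1.61 to 2.07, -1.99 to -1.64 and 1.43 to 1.82. Celsr1 stayed between -0.31 and -0.0012 and was called only without KO replicate 1. The log2 difference of Fat4 lay between -5.93 and -5.43 when single libraries were left out, and was -1.48 on log2(FPKM + 1) and -3.87 on log2(FPKM + 0.1), scales on which a pseudocount shrinks low values by construction. Genes lower in KO numbered 4021, and 6095 with the length correction, which moved the median of all genes by more than 0.1. The smaller counts that moved by more than 1.5 times were polarity genes higher (from 8 to 5 with a mean count of at least 50) and lower (from 8 to 5 without WT replicate 1), Fat and Dachsous partners higher (from 4 to 2 with a mean count of at least 50) and protocadherins higher (from 2 to 4 without the filter). The limit of 8000 bases was chosen after seeing the data. With a replicate block 8082 genes were called and the members' calls did not change, but equal replicate numbers did not mark paired samples (correlations of deviations 0.034, -0.010 and 0.061, with 1 of 3 WT libraries closest to its own number). Depth limits what can be said of Fat3, Dchs1 and Celsr3, which without the filter had adjusted p-values of 0.905, 0.110 and 0.178 (edgeR).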
